A study of Mus musculus with 9 samples.

Results

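The genes described here were 8 long noncoding RNAs of the mouse, of which Malat1 and Neat1 stay in the nucleus and Gas5, Snhg1, Snhg3, Snhg5, Snhg8 and Snhg12 are small nucleolar RNA (snoRNA) host genes. They were taken by gene name from the series table, which lists 54532 genes, and each name matched 1 row. The cells were B.END3, a mouse brain endothelial line. The labels give them as brain microvessel endothelial cells of strain C57BL/6 and the organism as Mus musculus, while the growth protocol and the methods call the cells rat. They were sequenced without treatment (Ctrl, 3 libraries) or after photodynamic treatment at 10 J/cm2 (Ep1, 3 libraries) or 20 J/cm2 (Ep2, 3 libraries). In this treatment a photosensitizer, here porfimer sodium at 300 µg/mL for 90 min, is excited by red light, here 635 nm at 100 mW/cm2, and passes the energy to oxygen, which forms reactive oxygen species. No library had light alone or porfimer sodium alone, so both treated groups differ from Ctrl in drug and light together. The time from irradiation to lysis is not stated, and nothing says that the 3 libraries of a group came from separate cultures, so p-values measure the spread between these libraries only. In bulk RNA, fewer cells with a transcript and less of it per cell cannot be told apart.

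Malat1 gathers in nuclear speckles, where splicing factors are stored, and is one of the most abundant nuclear RNAs of mammalian cells. Neat1 is the architectural RNA of paraspeckles, nuclear bodies that assemble on it with RNA-binding proteins such as Sfpq and Nono and that are known to change under stress. The 6 host genes carry snoRNAs in their introns, which are released after splicing and guide ribose methylation and pseudouridylation of ribosomal and other RNAs. Their spliced exons code for no conserved protein, and the spliced RNAs of several hosts, Gas5 among them, begin with a terminal oligopyrimidine tract like ribosomal protein mRNAs and are degraded by nonsense-mediated decay when ribosomes translate them.

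Coordinates below are those listed in the series table, which fit GRCm38, and lengths are the listed gene lengths used for FPKM (fragments per kilobase of gene, scaled to the library total). Malat1 (ENSMUSG00000092341) lies at chr19:5795690-5802672 on the minus strand, has a listed length of 6983 bases, and held 2899 to 5583 fragments per library. Neat1 (ENSMUSG00000092274) lies at chr19:5824708-5845478 on the minus strand, 22035 bases from Malat1, and its listed length of 20771 bases covers the whole locus. A level of Neat1 therefore does not separate its short and long isoforms. Snhg1 (ENSMUSG00000108414) is also on chromosome 19, at 8723475-8726443 on the plus strand. Gas5 (ENSMUSG00000053332) lies at chr1:161034422-161038539 on the plus strand. Snhg5 (ENSMUSG00000097195) lies at chr9:88521050-88522929 on the minus strand, and Snhg8 (ENSMUSG00000104960) at chr3:123507552-123508404 on the minus strand. Snhg12 (ENSMUSG00000086290) lies at chr4:132308623-132311024 on the plus strand. Snhg3 (ENSMUSG00000085241) lies at chr4:132348014-132353686 on the minus strand, 36989 bases from Snhg12, with 1 listed gene between them.

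The start sequences are shown because several host RNAs are known to begin with an oligopyrimidine tract. Each is the 30 bases before and the 30 bases from the annotated first base of RefSeq (GRCm38.p6), read 5′ to 3′ on the gene's own strand, and capitals mark a C followed by at least 4 pyrimidines that starts within 20 bases of the annotated first base. RefSeq's promoter table held 7 of the 8 genes, with 2 starts for Gas5, and Neat1 was the gene with no match.
Malat1, chr19:5802643-5802702, minus strand: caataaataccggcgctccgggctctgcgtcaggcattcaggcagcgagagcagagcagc
Gas5 upstream start, chr1:161034571-161034630, plus strand: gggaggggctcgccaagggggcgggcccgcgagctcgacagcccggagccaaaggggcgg
Gas5 downstream start, chr1:161035136-161035195, plus strand: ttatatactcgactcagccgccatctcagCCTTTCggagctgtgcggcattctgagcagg
Snhg1, chr19:8723457-8723516, plus strand: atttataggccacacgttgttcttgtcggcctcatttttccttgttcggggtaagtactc
Snhg3, chr4:132353657-132353716, minus strand: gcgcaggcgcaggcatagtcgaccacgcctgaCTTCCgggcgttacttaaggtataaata
Snhg5, chr9:88522868-88522927, minus strand: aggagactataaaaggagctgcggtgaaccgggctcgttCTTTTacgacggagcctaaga
Snhg8, chr3:123508307-123508366, minus strand: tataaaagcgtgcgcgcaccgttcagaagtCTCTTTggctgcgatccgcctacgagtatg
Snhg12, chr4:132308648-132308707, plus strand: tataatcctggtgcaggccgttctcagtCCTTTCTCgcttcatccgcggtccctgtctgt

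A C followed by at least 4 pyrimidines stood at the annotated first base in 2 of these 8 windows, Snhg8 and the downstream start of Gas5, where the run begins 1 base earlier, against 2.51% of the 32851 promoter windows in the table. Within 20 bases of the first base a run was present in 5 of 8 windows, against 48.2% of all windows, so the looser search adds little. The letters TATAA lay 40 to 20 bases before the first base in Snhg5, Snhg8 and Snhg12, against 3.52% of all windows, and this motif was searched only after the sequences had been read. Over the whole window of 250 bases before and 50 after the start, on both strands, TGACTCA (AP-1) and CACGTG (E-box) were in none of the 8 windows, against 5.2% and 7.15% of all. TGACGTCA (cyclic AMP response element) was in 1 window, the downstream start of Gas5, against 1.79%, and TGACNNNGC (the core of the antioxidant response element) was in 1, Snhg8, against 12.4%. A match in these letters is a description of sequence and not a binding site.

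The libraries held 16240688 to 19509225 fragments, recovered from the FPKM values, and libraries of 1 group differed by more than counting noise (chi-square per degree of freedom 2.81 to 15.3, the highest between Ep2 replicates 1 and 3). The mitochondrial share of fragments was 1.90 to 1.99% in Ctrl, 1.997 to 2.08% in Ep1 and 2.04 to 2.49% in Ep2. The endothelial label was weakly borne out. Of 12 endothelial markers 2 passed the filter on low values, Flt1 (a VEGF receptor) and Eng (endoglin), while Emcn and Erg were at 0 in every library and Cldn5 had at most 2 fragments. Krt8, an epithelial keratin, was at 562 to 714 FPKM, and 4 of 5 epithelial markers passed the filter. Of these, Krt18 and Krt19 had means of 262 and 203 FPKM over all libraries, and Epcam had 1.13 FPKM. The epithelial sum below is thus mostly keratins. Cdh1, an epithelial cadherin, did not pass, at a mean of 0.0434 FPKM (1 to 9 fragments). Of 5 fibroblast and 5 mural cell markers 1 each passed, Col1a1 (mean 6.80 FPKM) and Des (2.85 FPKM). The summed endothelial level was 9.45 to 9.67 FPKM in Ctrl, 9.43 to 10.8 in Ep1 and 13.0 to 14.1 in Ep2, and the summed epithelial level was 1029 to 1081, 937 to 1041 and 1155 to 1372 FPKM. Most of the endothelial sum was Flt1, at a mean of 8.34 FPKM over all libraries (6.66 to 11.7). Pecam1, Kdr, Tek, Tie1 and Vwf had means from 0.0391 (Kdr) to 0.158 FPKM (Pecam1). The part of these differences between groups in the results below was not tested.

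In control cells the order of the 8 genes by FPKM was Snhg8, Gas5, Malat1, Snhg5, Snhg1, Snhg12, Neat1 and Snhg3, and no neighbours in that order had overlapping ranges over the 3 libraries. FPKM divides by the listed length, which for Snhg1, Snhg8 and Snhg12 equals the whole span of the gene. The order is therefore one of FPKM and need not be that of molecule numbers. Among the 4651 genes that RefSeq types as long noncoding, Snhg8 ranked 4 by its Ctrl mean, Gas5 6, Malat1 7 and Snhg5 9. Snhg1 ranked 13, Snhg12 28 and Neat1 36. The description as abundant did not hold for Snhg3, which ranked 616 with 1 to 7 fragments per library, and Snhg3 did not pass the filter of FPKM 1 in 3 libraries. It was also weak for Neat1 and Snhg12, at percentiles 43.1 and 51.3 of the Ctrl means of all tested genes. The other tested genes of the 8 stood at percentiles from 70.2 (Snhg1) to 89.1 (Snhg8). In Ep1 the order began with Gas5, Snhg5, Snhg8 and Malat1, whose neighbouring ranges overlapped. In Ep2 Malat1 stood first, above Gas5 without overlap, while Gas5 overlapped Snhg8 and Snhg12 overlapped Neat1.

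**Figure D1:**
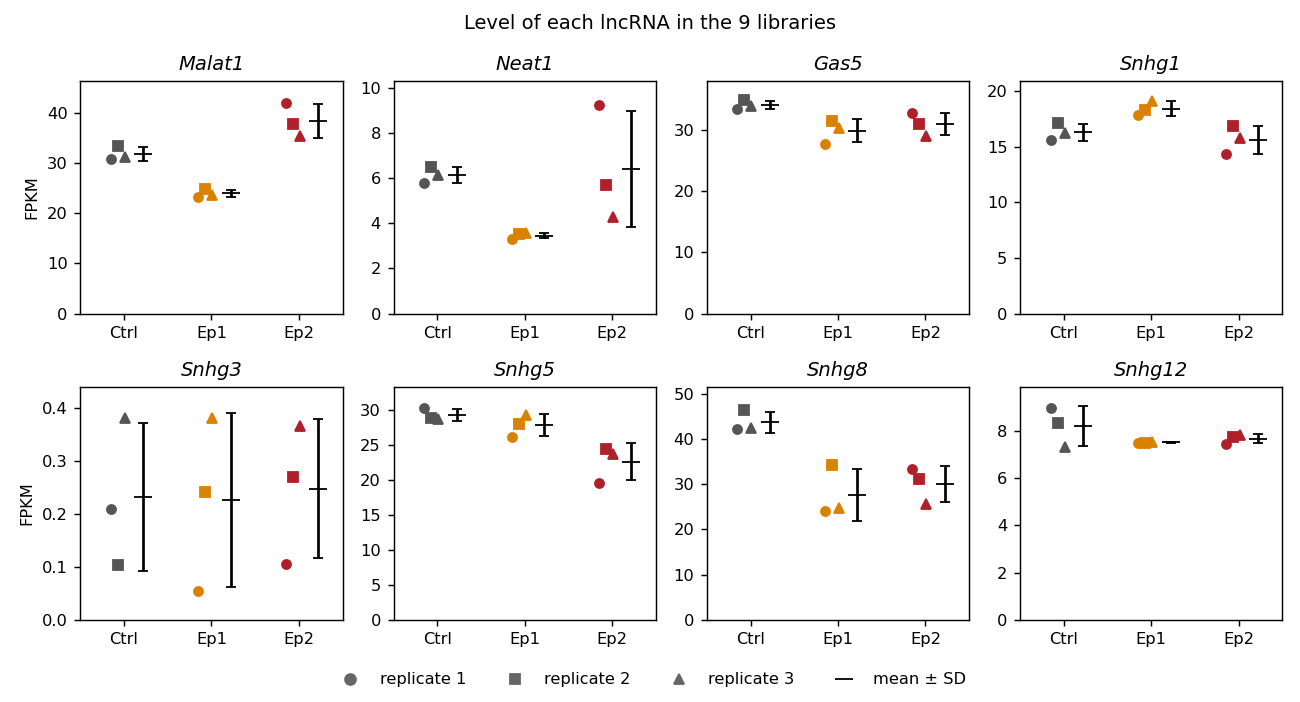
FPKM of each of the 8 genes in the 9 libraries, 1 panel per gene, with a point for each library and, beside them, the group mean with its SD. Malat1 was lowest in the 3 Ep1 libraries and highest in the 3 Ep2 libraries, Snhg8 was lower in all 6 treated libraries than in the 3 Ctrl libraries, and Snhg5 was lowest in the 3 Ep2 libraries.

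The first question was which of these RNAs changed at each light dose. Malat1 fell at the lower dose and rose at the higher, Snhg8 fell at both, and Snhg5 fell at the higher dose alone by the test against Ctrl. Neat1 was lower in all Ep1 libraries but did not pass the test against Ctrl, and Gas5, Snhg1 and Snhg12 did not pass it at either dose. In Ep1 against Ctrl, 2 of the 7 tested genes were called at an adjusted p under 0.05, both lower, where 11.3% of all 11727 tested genes were called (6.32% higher and 4.97% lower). In Ep2 against Ctrl, 3 of 7 were called, 1 higher and 2 lower, where 53.2% of all tested genes were called (23.9% higher and 29.3% lower), so a call at the higher dose sets a gene apart less. Differences are given on the log2(FPKM + 1) scale, which understates the change of low genes.

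Malat1 measured 30.8, 33.5 and 31.2 FPKM in the Ctrl libraries, 23.3, 24.8 and 23.7 FPKM in Ep1, and 41.9, 37.9 and 35.3 FPKM in Ep2. The 3 groups did not overlap, with Ep1 lowest and Ep2 highest. From 31.8 ± 1.43 FPKM (SD, n = 3) in Ctrl the mean fell by 24.8% to 23.9 ± 0.738 in Ep1, a log2 difference of -0.40 (95% CI -0.54 to -0.25, limma's adjusted p = 0.00975). In Ep2 it rose by 20.6% to 38.4 ± 3.34 FPKM, a log2 difference of 0.26 (0.12 to 0.40, adjusted p = 0.00669). Both calls held in all 14 alternative analyses, that of Ep1 narrowly. The highest adjusted p in limma was 0.0496 in Ep1, without Ep1 replicate 3, and 0.028 in Ep2, without Ctrl replicate 1.

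Neat1 measured 5.77, 6.50 and 6.14 FPKM in Ctrl, 3.31, 3.51 and 3.56 FPKM in Ep1, and 9.24, 5.68 and 4.29 FPKM in Ep2. All Ep1 libraries lay below all others, while the Ep2 libraries spread to both sides of Ctrl and replicate 1 alone lay above it. The Ep1 mean of 3.46 ± 0.132 FPKM was 0.564 times the Ctrl mean of 6.14 ± 0.365, a log2 difference of -0.68 (-1.14 to -0.21), and it did not pass the test (adjusted p = 0.0653). The test shares 1 spread per gene over all 9 libraries, and that of Neat1 is set by Ep2, where the coefficient of variation was 39.9%. Fitted on the Ctrl and Ep1 libraries alone, the same difference had an adjusted p of 0.00318. The Ep2 mean of 6.40 ± 2.55 FPKM did not differ detectably from Ctrl (log2 difference -0.00, -0.46 to 0.46, adjusted p = 0.998). Without Ep2 replicate 1 this difference was -0.26 (adjusted p = 0.0436), and without Ep2 replicate 3 it was 0.21 and not called, so its direction depended on single libraries.

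Malat1 and Neat1 are transcribed from loci 22035 bases apart, and their ratio was compared within libraries. Neat1 was 0.187, 0.194 and 0.197 of the Malat1 FPKM in Ctrl, and 0.142, 0.142 and 0.150 of it in Ep1. The Ep2 ratios were 0.220, 0.150 and 0.121. In Ep1 both RNAs were low, with Neat1 lower in proportion, whereas in Ep2 Malat1 was high in every library and Neat1 followed in replicate 1 alone. The 65 tested genes with a listed length of at least 20000 bases had a median log2 difference of 0.04 in Ep1, and 5% of them lay below -0.10, against -0.68 for Neat1. In Ep2 replicate 1 the median gene of that class was 0.06 below its group mean on the log2 scale, while Neat1 was highest in that library. With a gene length correction the Neat1 difference was -0.75 in Ep1 (limma's adjusted p = 0.0723) and -0.13 in Ep2 (adjusted p = 0.649). Between the doses it was 0.62 (adjusted p = 0.058). The part of gene length in the Neat1 values was not tested beyond this correction.

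**Figure D2:**
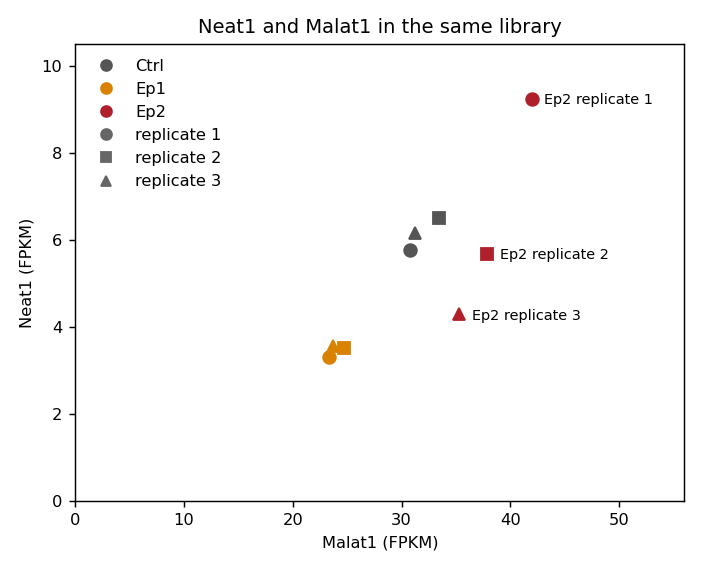
Neat1 FPKM against Malat1 FPKM in the same library, 1 point for each of the 9 libraries, with colour for the group and shape for the replicate number. The Ep1 libraries sit together at 23.3 to 24.8 FPKM of Malat1 and 3.31 to 3.56 FPKM of Neat1, and the Ep2 libraries spread from 4.29 to 9.24 FPKM of Neat1.

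Snhg8, host of an H/ACA snoRNA, had the highest FPKM of the 8 genes in Ctrl. It measured 42.2, 46.4 and 42.5 FPKM in Ctrl, 24.1, 34.3 and 24.6 FPKM in Ep1, and 33.3, 31.1 and 25.6 FPKM in Ep2. Every treated library lay below every Ctrl library, and the Ep1 and Ep2 libraries overlapped. The mean fell by 36.7% in Ep1, from 43.7 ± 2.34 to 27.7 ± 5.76 FPKM (SD, n = 3), a log2 difference of -0.66 (-0.98 to -0.34, adjusted p = 0.025). Snhg8 was the 1 gene of the 8 past both thresholds of a differentially expressed gene in Ep1, an adjusted p under 0.05 and an absolute log2 difference above 0.6. Of all tested genes 0.793% passed both, and 0.222% of all tested genes did so downward. This call was lost without Ctrl replicate 1 or 2 or Ep1 replicate 1 or 3 (highest adjusted p 0.0983), and leaving out any 1 library gave log2 differences from -0.82 to -0.57. In Ep2 the mean fell by 31.4% to 29.99 ± 3.94 FPKM, a log2 difference of -0.53 (-0.85 to -0.22, adjusted p = 0.0115), and that call held in all 14 alternatives. Snhg8 has a listed length of 853 bases, and the 1397 tested genes under 1000 bases ranged widely in Ep1, with a median of -0.06 and 5% of them below -0.64.

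Snhg5, a host of box C/D snoRNAs, measured 30.2, 28.8 and 28.7 FPKM in Ctrl, 26.1, 28.0 and 29.3 FPKM in Ep1, and 19.6, 24.4 and 23.7 FPKM in Ep2. The Ep2 libraries all lay below the rest, and Ep1 overlapped Ctrl. The mean fell by 22.7% in Ep2, from 29.2 ± 0.862 to 22.6 ± 2.61 FPKM, a log2 difference of -0.36 (-0.54 to -0.19, adjusted p = 0.00357), which held in all 14 alternatives. In Ep1 the log2 difference was -0.07 (-0.25 to 0.10, adjusted p = 0.58).

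Gas5, whose spliced RNA is known to accumulate when growth stops and translation is blocked, measured 33.5, 34.8 and 33.9 FPKM in Ctrl, 27.8, 31.5 and 30.3 FPKM in Ep1, and 32.7, 31.0 and 29.1 FPKM in Ep2. All treated libraries were below all Ctrl libraries. The differences did not pass the adjusted threshold at either dose, with log2 differences of -0.19 (-0.31 to -0.06, adjusted p = 0.0667) in Ep1 and -0.14 (-0.27 to -0.01, adjusted p = 0.0704) in Ep2. Without Ep2 replicate 1 the Ep2 difference was -0.18 with an adjusted p of 0.0267, and the Ep1 difference had adjusted p values from 0.0229 to 0.0497 with recovered fragments, with only the 2 groups compared or with a filter of FPKM 5.

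Snhg1, which hosts several box C/D snoRNAs, measured 15.6, 17.1 and 16.2 FPKM in Ctrl, 17.8, 18.3 and 19.1 FPKM in Ep1, and 14.3, 16.8 and 15.7 FPKM in Ep2. The Ep1 libraries were the 3 highest. The log2 difference in Ep1 was 0.17 (0.03 to 0.31, adjusted p = 0.112), and fitted on Ctrl and Ep1 alone it had an adjusted p of 0.047. In Ep2 the groups overlapped, with a log2 difference of -0.06 (-0.20 to 0.08, adjusted p = 0.446).

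Snhg12 measured 8.96, 8.30 and 7.31 FPKM in Ctrl, 7.49, 7.47 and 7.54 FPKM in Ep1, and 7.43, 7.74 and 7.80 FPKM in Ep2. Ctrl replicates 1 and 2 lay above all treated libraries and Ctrl replicate 3 below them. The log2 differences were -0.11 (-0.25 to 0.04, adjusted p = 0.291) in Ep1 and -0.08 (-0.23 to 0.06, adjusted p = 0.307) in Ep2. Without Ctrl replicate 3 the Ep2 difference was -0.15 with an adjusted p of 0.04. Snhg3 had Ctrl, Ep1 and Ep2 means of 0.232 ± 0.141, 0.226 ± 0.164 and 0.248 ± 0.132 FPKM (SD, n = 3 each), and at 1 to 7 fragments a difference between groups was not detectable.

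Ranges that do not overlap were common over all genes. In Ep1 the 3 libraries lay wholly above or below the Ctrl libraries for 5 of the 7 tested genes, Snhg1 above and Malat1, Neat1, Gas5 and Snhg8 below, against 41.3% of all tested genes (20.8% above and 20.5% below). In Ep2 this held for 4 of 7, Malat1 above and Gas5, Snhg5 and Snhg8 below, against 59.7% (27% above and 32.7% below). None of the 7 passed both thresholds of a differentially expressed gene in Ep2, where 9.17% of all tested genes did. An unadjusted p under 0.05 in limma was found for 5 of the 7 in Ep1 and 4 in Ep2. The share of all tested genes with such a p was not counted. At the adjusted threshold, which is stricter, 11.3% of all tested genes passed in Ep1 and 53.2% in Ep2. The median log2 difference of the 7 genes was -0.19 in Ep1 and -0.08 in Ep2, beside -0.01 and -0.03 over all tested genes.

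**Figure D3:**
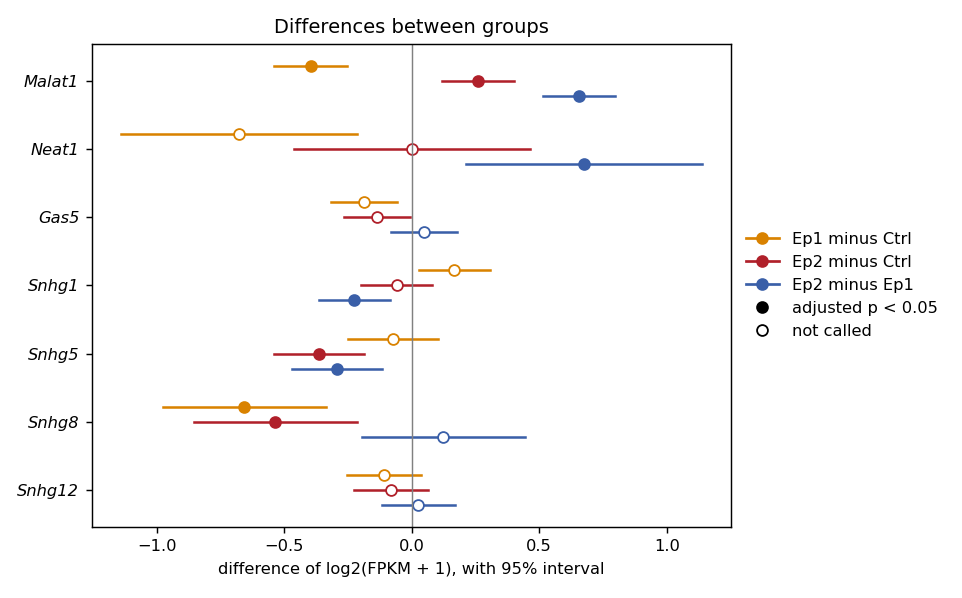
Log2 difference of each tested gene, on the log2(FPKM + 1) scale with 95% confidence intervals from limma, for each dose against Ctrl and for the higher against the lower dose, with filled points for an adjusted p under 0.05. Malat1 lies on opposite sides of 0 at the 2 doses (-0.40 and 0.26), Snhg8 lies below 0 at both (-0.66 and -0.53), and the Neat1 interval in Ep2 spans -0.46 to 0.46.

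The second question was whether the 2 light doses differed. In Ep2 against Ep1, 4 of the 7 tested genes were called, Malat1 and Neat1 higher and Snhg1 and Snhg5 lower, where 44% of all tested genes were called (18.8% higher and 25.2% lower). Malat1 rose by 60.4% from Ep1 to Ep2, a log2 difference of 0.66 (0.51 to 0.80, adjusted p = 5.74e-05), with all Ep2 libraries above all Ep1 libraries, and this held in all 14 alternatives. Neat1 was 1.85 times as high, a log2 difference of 0.68 (0.21 to 1.14, adjusted p = 0.0257), also without overlap. The Ep2 libraries lay wholly above or below the Ep1 libraries for these 4 of 7 genes, against 54.4% of all tested genes (24.1% above and 30.3% below). The Neat1 call was lost without Ep1 replicate 1, 2 or 3 (adjusted p 0.0684, 0.0638 and 0.062), and without Ep2 replicate 1 the difference was 0.42 with an adjusted p of 0.00779. Malat1 and Neat1 also passed both thresholds of a differentially expressed gene. In this comparison 5.9% of all tested genes passed both, and 1.94% of all tested genes did so upward.

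Among the host genes, Snhg1 was lower in Ep2 than in Ep1 by 0.23 on the log2 scale (difference -0.23, -0.37 to -0.09, adjusted p = 0.0154), and Snhg5 by 0.29 (difference -0.29, -0.47 to -0.12, adjusted p = 0.0138). Without Ep1 replicate 3 both calls were lost, at adjusted p 0.0611 for Snhg1 and 0.0558 for Snhg5. Gas5, Snhg8 and Snhg12 gave no call between the doses, with log2 differences of 0.05 (-0.08 to 0.18), 0.12 (-0.20 to 0.44) and 0.03 (-0.12 to 0.17). These intervals leave room for a difference of up to 0.44 in Snhg8. The 3 comparisons share libraries, so their values for a gene are not independent of each other.

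The host genes were next set beside what their loci carry. Inside the 6 hosts, on the same strand, the series table lists 28 small RNA genes, 10 in Gas5, 8 in Snhg1, 5 in Snhg12, 2 each in Snhg3 and Snhg5 and 1 in Snhg8. All 28 were at 0 in every library, as were 87 of the 141 listed genes with a Snora or Snord name (61.7%). The libraries thus give no level of the snoRNAs. How fragments shared by a host and a nested gene were assigned is not given, so a host value need not come from its spliced transcript alone. The span of Snhg3 overlaps Rcc1, a gene on the same strand that codes for a chromatin-bound exchange factor of Ran, over 5592 bases. Rcc1 stood at 45.2 ± 1.85 FPKM in Ctrl and 30.5 ± 2.15 FPKM in Ep2, far above Snhg3, so the level of Snhg3 is uncertain. Zbtb37 overlaps Gas5 by 428 bases on the opposite strand at a mean of 0.978 to 1.23 FPKM per group, and whether counting used strand is not given.

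The proteins that work with these RNAs were described from lists, by the level of their mRNAs. Here and in the lists that follow, a protein or factor that rose or fell stands for its mRNA. No protein level was measured in these libraries. Over all tested genes 6.32% rose and 4.97% fell in Ep1, and 23.9% rose and 29.3% fell in Ep2. Of 13 tested snoRNP proteins, which bind and stabilize snoRNAs, 0 were called in Ep1 by limma (0 with an unadjusted p under 0.05 and 0 with voom) and 11 fell in Ep2, with Nop58 and Naf1 the exceptions. Their median log2 difference was -0.00 in Ep1 and -0.51 in Ep2. The largest fall was that of Nhp2, a core protein of H/ACA particles, from 244 ± 2.80 FPKM in Ctrl to 114 ± 7.36 FPKM in Ep2, a log2 difference of -1.10 (adjusted p = 3.4e-06). Fbl, the methyltransferase of box C/D particles, fell by 0.58 on the log2 scale, from 55.7 ± 0.745 to 36.8 ± 1.24 FPKM. Snhg5 fell in Ep2 together with the mRNAs of these proteins, and Snhg8 fell at both doses, including Ep1, where 0 of these mRNAs were called.

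Of 15 other snoRNA host genes on the list, 13 were found and 9 tested. In Ep1 0 were called by limma (2 with an unadjusted p under 0.05, 0 with voom), and 3 fell in Ep2, where 29.3% of all tested genes fell. The median log2 difference of the list was -0.11 in Ep1 and -0.14 in Ep2. The largest fall was that of Snhg15, from 20.6 ± 0.336 FPKM in Ctrl to 14.4 ± 1.19 in Ep2 (log2 difference -0.50, adjusted p = 0.000433). Dancr and Zfas1 fell by 0.43 and 0.25 on the log2 scale, and the Dancr call was lost without Ctrl replicate 1 (adjusted p = 0.0643). By the main test no host gene rose at either dose, neither in the list nor among Gas5, Snhg1, Snhg5, Snhg8 and Snhg12. Over all tested genes 6.32% rose in Ep1 and 23.9% in Ep2. With only the groups compared, Snhg1 was called higher in Ep1 (log2 difference 0.17, limma's adjusted p = 0.047).

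Of 12 paraspeckle proteins, 4 rose in Ep1 and 0 fell, where 6.32% of all tested genes rose and 4.97% fell. In Ep2 3 rose and 4 fell, near the shares over all tested genes (23.9% and 29.3%). Sfpq, a core protein of paraspeckles, rose at both doses, from 95.7 ± 3.59 FPKM in Ctrl to 114 ± 3.14 FPKM in Ep1 and 129 ± 4.88 FPKM in Ep2. Without Ctrl replicate 2 or Ep1 replicate 3 all 4 Ep1 calls were lost, and that of Sfpq also without Ep1 replicate 1 (log2 differences 0.22 to 0.27 leaving out any 1 library, highest adjusted p 0.0612). The largest rise in Ep2 was that of Pspc1, another core protein (log2 difference 0.46, adjusted p = 5.79e-05), and the largest fall that of Smarca4, a chromatin remodeller found in paraspeckles (-0.41, adjusted p = 0.000194). Nono, the partner of Sfpq, fell by 0.22 in Ep2, so the mRNAs of the core proteins did not move as 1 group. In Ep1 Sfpq rose while Neat1 stood at its lowest. Of 12 nuclear speckle and SR proteins, 0 were called by limma in Ep1, where Malat1 fell (4 with an unadjusted p under 0.05, 0 with voom). In Ep2 1 rose and 2 fell, below the shares of 23.9% and 29.3% over all tested genes. Srsf5 rose by 0.36 (adjusted p = 0.00245) and Srsf7 fell by 0.58 (adjusted p = 0.000249), both splicing factors of the SR family.

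**Figure D4:**
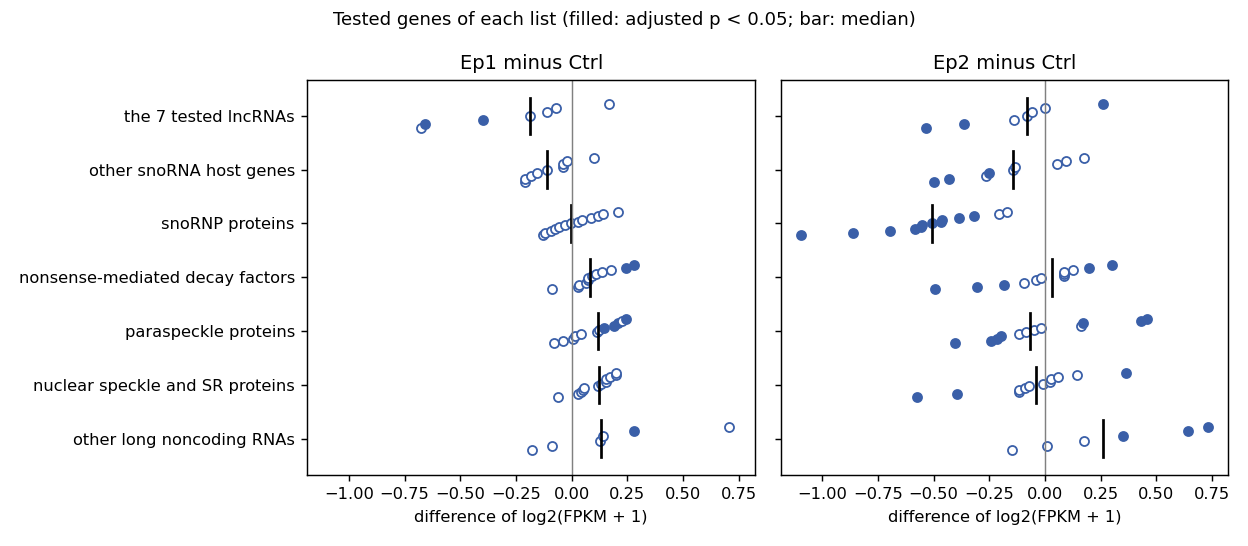
Log2 difference from Ctrl of every tested gene of the 6 lists and of the 7 tested genes, in Ep1 and in Ep2, with 1 point per gene, filled for an adjusted p under 0.05, and a bar at the list median. The snoRNP proteins have a median of -0.00 in Ep1 and -0.51 in Ep2, and the other snoRNA host genes -0.11 and -0.14.

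For each gene the 3 tested genes with the most similar pattern were taken by Pearson's r of log2(FPKM + 1) over the 9 libraries. The libraries fall in 3 groups, so where the groups differ r mostly reflects their means. For Snhg12 the groups gave no call and the Ctrl libraries ran from 7.31 to 8.96 FPKM, so r also reflects that spread. The most similar genes for Malat1 were Cdc42ep2 (r = 0.99), Tor4a (r = 0.98) and Arhgap45 (r = 0.98). Cdc42ep2 stood at 8.76, 5.38 and 13.1 FPKM in Ctrl, Ep1 and Ep2. Cdc42ep2 lies 72077 bases from Neat1 on chromosome 19, with 4 tested genes between them. For Neat1 they were Ptpn6 (r = 0.98), Trim41 (r = 0.97) and Golga2 (r = 0.97). Malat1 and Neat1 had r = 0.85 with each other, which put Neat1 at rank 363 of 11726 genes for Malat1.

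For Snhg8 the most similar genes were Rps29 (r = 0.99), Swi5 (r = 0.98) and Rps28 (r = 0.98), of which Rps29 and Rps28 code for ribosomal proteins. Rps29 stood at 617, 349 and 365 FPKM in Ctrl, Ep1 and Ep2, and Rps28 at 338, 208 and 213 FPKM. Gas5 ranked 25 for Snhg8 and Snhg8 ranked 9 for Gas5, with r = 0.94 between them. For Snhg5 the most similar were Slc10a7 (r = 0.99), Nop56 (r = 0.99), a core protein of box C/D snoRNPs, and Rrp8 (r = 0.98), a nucleolar protein. For Gas5 they were Zfyve27, Cox7c and Ccdc84, for Snhg1 Slc35g1, Gabpb2 and P2ry2, and for Snhg12 Gm23969, Sirt4 and ENSMUSG00000073481, with r from 0.93 to 0.97.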

How the data were processed

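RNA was sequenced from 9 libraries of B.END3 cells, grouped by the library names. Per the methods, reads were mapped to the mouse genome, and the authors deposited FPKM for 54532 genes, with the listed gene length. Their methods name GRCm39, the submitters' processing notes list Bowtie 0.12.2 and mm8, and the listed coordinates overlap those of RefSeq GRCm38.p6 for 99.9% of 37624 genes matched by symbol. The counting tool, its use of strand and the RNA selection are not given in the sources used here. The product of FPKM and listed length fell within 0.05 of whole multiples of 1 step per library for 100% of values, which gave fragments and totals. FPKM divides by the library total and gene length, so a change in a few abundant genes shifts all others.

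From the deposited FPKM, log2(FPKM + 1) of the 11727 genes that reached FPKM 1 in 3 or more libraries was fitted with limma 3.58.1 in R 4.3.3 (1 mean per group, all 9 libraries, eBayes with trend and robust estimation), with Benjamini-Hochberg adjustment over all tested genes within each comparison. Scripts were tested on simulated data. Alternatives were median centring, no filter, a filter of FPKM 5, a pseudocount of 0.1, only the groups compared, a replicate block, a gene length correction, voom on the recovered fragments of 14112 genes, and leaving out each library. The named genes were the 8 lncRNAs, the largest rise and fall called in Ep2 in each list, and the 3 genes most like each lncRNA. One gene that this rule names is not reported here. Dancr, Zfas1, Fbl, Nop58, Naf1, Sfpq, Nono, Rcc1, Zbtb37, Tug1 and Mir17hg fall outside this rule and were chosen after their values were seen. The 8 genes and the lists were chosen with earlier results of these data known. Lists are described by counts and medians without a test.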

Additional observations from a re-analysis of the deposited data

Results flagged for a closer look

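For 4 genes the difference from Ctrl was not the same at the 2 light doses, by limma's test of Ep2 against Ep1 in which Ctrl cancels. Malat1 differed by 0.66 on the log2 scale, lower than Ctrl in all 3 Ep1 libraries and higher in all 3 Ep2 libraries. Neat1 differed by 0.68, lower than Ctrl in all 3 Ep1 libraries and on both sides of it in Ep2. Snhg1 differed by -0.23 and was higher than Ctrl in all Ep1 libraries, without passing the test against Ctrl at either dose. Snhg5 differed by -0.29, with all Ep2 libraries below all Ctrl libraries and the Ep1 libraries overlapping Ctrl. Over all tested genes 44% were called in the same test, so a difference between the doses was common.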

How the results depend on the processing

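Malat1 was called in the same direction in all 3 comparisons under all 14 alternatives (log2 difference from -0.43 to -0.36 in Ep1, 0.20 to 0.32 in Ep2). Its highest adjusted p in Ep1, by limma, was 0.0496, close to the threshold. In Ep1 against Ctrl the number of the 8 genes called was 2, and it was 1 without a filter, 5 with only the groups compared, 3 with a filter of FPKM 5 or with voom, and 1 to 2 leaving out 1 library. The list genes called numbered 7, against 3 without a filter, 18 with only the groups compared and 0 to 5 leaving out 1 library, and all genes called numbered 1324, against 396, 2162, 1995 with voom and 191 to 1034. With only the groups compared Neat1 (-0.68), Gas5 (-0.19) and Snhg1 (0.17) passed, Gas5 also passed with a filter of FPKM 5 (-0.19) and voom (-0.21), and Snhg8 was lost without a filter (-0.66, adjusted p = 0.0678) and ran from -0.82 to -0.57 leaving out 1 library.

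In Ep2 against Ctrl 3 to 5 of the genes were called leaving out 1 library, 5 of them without Ep2 replicate 1. Neat1 turned to 0.046 with median centring and 0.017 with voom, and ran from -0.26 to 0.21 leaving out 1 library, the highest without Ep2 replicate 3. Under the gene length correction Snhg1 turned to 0.020 and Snhg12 to 0.0036. Leaving out 1 library, Gas5 ran from -0.18 to -0.095 and Snhg12 from -0.15 to -0.023. In Ep2 against Ep1 4 genes were called, against 2 under the length correction and 1 to 4 leaving out 1 library, with 1 without Ep1 replicate 3. Neat1 was lost without a filter (0.68), with only the groups compared (0.68), under the length correction (0.62) and with voom (0.86), and ran from 0.42 to 0.89 leaving out 1 library. Snhg1 was lost under the length correction (-0.17), and leaving out 1 library it ran from -0.28 to -0.17, Snhg5 from -0.35 to -0.20 and Gas5 from -0.0018 to 0.091.

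The replicate numbers are shared across groups, but deviations of same-numbered libraries correlated between -0.06 and 0.07 and those of other pairs between -0.11 and 0.15, so they were taken as numbers only. With the replicate block 2, 3 and 4 of the genes were called in the 3 comparisons, as without it, and 3 rather than 7 list genes in Ep1. The cause of these changes was not tested. With 3 libraries per group the printed intervals give the precision, and Snhg3 was limited by its 1 to 7 fragments.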

Other observations

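Of 14 other long noncoding RNAs on the list 13 were found and 6 tested. Of these 1 rose in Ep1, where 6.32% of all tested genes rose, and 3 in Ep2, where 23.9% did. At both doses 0 fell (in limma 2 and 3 had an unadjusted p under 0.05, and voom called 1 and 4 of 7). Mir22hg, the host transcript of miR-22, rose at both doses, from 12.7 ± 0.712 FPKM in Ctrl to 15.7 ± 1.51 FPKM in Ep1 (log2 difference 0.28, limma's adjusted p = 0.0356) and 21.8 ± 0.961 FPKM in Ep2 (0.73, adjusted p = 3.6e-05). The Ep1 call of Mir22hg was lost without Ctrl replicate 1 or 2 or Ep1 replicate 1 or 3 (0.21 to 0.34 leaving out any 1 library, highest adjusted p 0.136). Tug1, a long noncoding RNA found in nucleus and cytoplasm, stood at 13.5 ± 0.395 FPKM in Ctrl and rose to 21.7 ± 1.25 FPKM in Ep2 (0.64, adjusted p = 2.44e-05). Mir17hg, the host of the miR-17 cluster, rose by 0.35 on the log2 scale in Ep2.

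Of 12 factors of nonsense-mediated decay, 2 rose and 0 fell in Ep1, where 6.32% and 4.97% of all tested genes did. In Ep2 2 rose and 3 fell, where 23.9% and 29.3% of all tested genes did. Both Ep1 calls were lost without Ctrl replicate 2, Ep1 replicate 1 or Ep1 replicate 3. Upf3b, which links exon junctions to decay, fell in Ep2 from 7.10 ± 0.797 to 4.78 ± 0.788 FPKM (log2 difference -0.49, adjusted p = 0.00315). Gas5, whose spliced RNA is a known substrate of this decay, was lower than Ctrl in all 6 treated libraries without passing the test at either dose.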
